A study of Mus musculus with 3 samples.

Results

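Axon guidance ligands and receptors are the secreted and membrane-bound cues, and their cell-surface receptors, that steer growing axons and migrating cells. They were taken as every gene on the array whose symbol belonged to the semaphorins (Sema), plexins (Plxn), ephrins (Efn), Eph receptors, Slits, Robos, netrins and netrin-Gs (Ntn, Ntng) or Unc5 receptors. The deposited files held 68 such genes on 97 probes, of 30119 genes on the array, and 62 of the 68 (34 ligands and 28 receptors) could be measured. The RNA came from mouse embryoid bodies, aggregates of embryonic stem cells that differentiate together into a mixture of tissues. The mutant, Dido3deltaCT+HADidoNT, makes a Dido3 protein that lacks its C-terminal end and also overexpresses the HA-tagged N-terminal region, with its PHD domain, that all Dido proteins share. The wild-type control carried neither change. Both grew in suspension for 10 days with no LIF, a cytokine that keeps stem cells undifferentiated. There were 3 biological replicates of each genotype, and each of 3 two-colour arrays held 1 mutant and 1 wild-type RNA. The labels do not say whether the mutant was more than 1 clone, so a difference between the genotypes cannot be told apart from a difference between lines.

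Semaphorins bind plexins, and the secreted class 3 semaphorins mostly need neuropilins as coreceptors. Ephrins bind Eph receptors on a neighbouring cell, and both partners can signal. Slits repel cells through Robo receptors, and netrins attract through Dcc or repel through Unc5 receptors. The same molecules work outside the nervous system: ephrin-B2 and Ephb4 mark arteries and veins, Plxnd1 reads semaphorins on endothelial cells, and Robo4 and Unc5b are enriched in blood vessels. Ephrin-B1, encoded on the X chromosome, sets boundaries in the neural crest, the skeleton and somites.

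The promoters of 4 genes are printed here because these are the only measured members that were at least 2-fold changed in 1 direction on all 3 arrays, Efnb1, Robo4 and Plxna2 higher and Sema3c lower. Each runs from 250 bases before to 50 bases after the gene's start, from RefSeq (GRCm38.p6, plus strand), at chrX:99135811-99136110 for Efnb1, chr9:37401722-37402021 for Robo4, chr1:194619579-194619878 for Plxna2 and chr5:17574566-17574865 for Sema3c. Capitals mark AGGAAG or its reverse complement CTTCCT, a core that ETS factors can bind.
Efnb1: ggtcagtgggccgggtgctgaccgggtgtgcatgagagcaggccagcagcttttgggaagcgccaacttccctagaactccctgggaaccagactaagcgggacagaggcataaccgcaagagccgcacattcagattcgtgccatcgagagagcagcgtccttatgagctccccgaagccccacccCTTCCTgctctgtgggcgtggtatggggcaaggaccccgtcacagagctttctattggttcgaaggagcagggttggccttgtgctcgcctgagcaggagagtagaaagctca
Robo4: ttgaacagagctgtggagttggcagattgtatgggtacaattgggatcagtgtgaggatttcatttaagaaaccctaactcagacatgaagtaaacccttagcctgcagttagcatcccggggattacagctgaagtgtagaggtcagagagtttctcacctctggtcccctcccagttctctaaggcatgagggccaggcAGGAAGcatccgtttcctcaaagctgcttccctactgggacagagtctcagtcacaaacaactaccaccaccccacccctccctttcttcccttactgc
Plxna2: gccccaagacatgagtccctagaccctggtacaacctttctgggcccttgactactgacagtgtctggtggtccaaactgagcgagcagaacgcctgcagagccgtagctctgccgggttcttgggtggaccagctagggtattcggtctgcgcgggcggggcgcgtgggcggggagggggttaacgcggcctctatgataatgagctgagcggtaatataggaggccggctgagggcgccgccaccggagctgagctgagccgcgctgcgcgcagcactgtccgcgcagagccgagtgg
Sema3c: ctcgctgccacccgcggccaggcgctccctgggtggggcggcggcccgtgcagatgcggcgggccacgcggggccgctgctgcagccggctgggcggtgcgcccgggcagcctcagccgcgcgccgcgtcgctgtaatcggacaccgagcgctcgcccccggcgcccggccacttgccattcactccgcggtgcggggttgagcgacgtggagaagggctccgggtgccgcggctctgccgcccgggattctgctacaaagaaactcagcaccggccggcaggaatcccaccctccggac
Efnb1 and Robo4 held 1 copy of AGGAAG each on either strand, and Plxna2 and Sema3c held none. Of all 32851 promoters of this length, 35.4% held it, and of 70 promoters of 54 measured members 38.6% held it. The GC box letters GGGCGG, searched on both strands and not overlapping AGGAAG, occurred 2 times in Plxna2, 3 times in Sema3c and in neither Efnb1 nor Robo4. They were found in 71.4% of the members' promoters, against 35.7% of all promoters. AGATAA, letters that GATA factors can bind, was found in 4.29% of the members' promoters, against 11.2% of all promoters, and in none of these 4. The members' promoters held a median of 20 CpG dinucleotides, against 7 over all promoters. Sema3c held 42 and Plxna2 25, while Efnb1 held 14 and Robo4 2. The members counted here are the measured ones, while all promoters include those of genes not measured, so the sets differ in more than gene family. These matches describe letters in the window and no binding was measured.

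The labels were checked on Dido1, the altered gene, before any member was read. A probe that the files assign to all 3 of their Dido1 transcripts had log2 ratios of mutant over wild type of 2.77, 1.97 and 2.31 on arrays 1, 2 and 3. The other 3 probes, which the files assign to 1 of these transcripts each, gave -3.79, -3.58 and -3.45, then 2.98, 2.72 and 3.40, and -1.61, 0.05 and -0.07. The probes thus gave no common direction for Dido1. The mutant and wild-type channels had 66.5% to 74.8% and 64.8% to 76.0% of spots well above background, and no spot was saturated. Mutant RNA was labelled with Cy3 on arrays 1 and 3 and with Cy5 on array 2, so no dye effect can be separated from the replicate. Over 19665 genes tested, ratios of arrays 1 and 3 correlated at 0.79, those of arrays 1 and 2 at 0.38 and those of arrays 2 and 3 at 0.19, and over the 62 members at 0.82, 0.35 and 0.30. Array 2 therefore stood apart, and values below are given in the order of arrays 1, 2 and 3.

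The guidance genes as a set had a median near that of the whole array. The median of their mean log2 ratios was 0.12, with -0.04, 0.31 and -0.12 on arrays 1, 2 and 3, and the median of all genes tested was -0.01. Single members were spread more widely, since the median size of a member's mean log2 ratio was 0.49, against 0.30 over all genes. In a limma test of the ratio against 0, with p-values adjusted over all genes, 1 of the 62 members passed 0.05, a share of 1.61%, against 1.65% of all genes tested. At an unadjusted p under 0.05, 9 members were higher and 5 were lower in the mutant, shares of 14.5% and 8.06%, against 12.1% and 7.78% of all genes. On all 3 arrays 14 of 62 members (22.6%) were higher and 11 (17.7%) were lower, against 22.5% and 19.1% of all genes. At least 2-fold differences on all 3 arrays occurred in 3 members upward (4.84%, against 3.1% of all genes) and in 1 member downward (1.61%, against 1.08%). All these shares lay near those of the whole array. In bulk RNA, fewer cells of a type and less RNA per cell cannot be told apart.

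**Figure D1:**
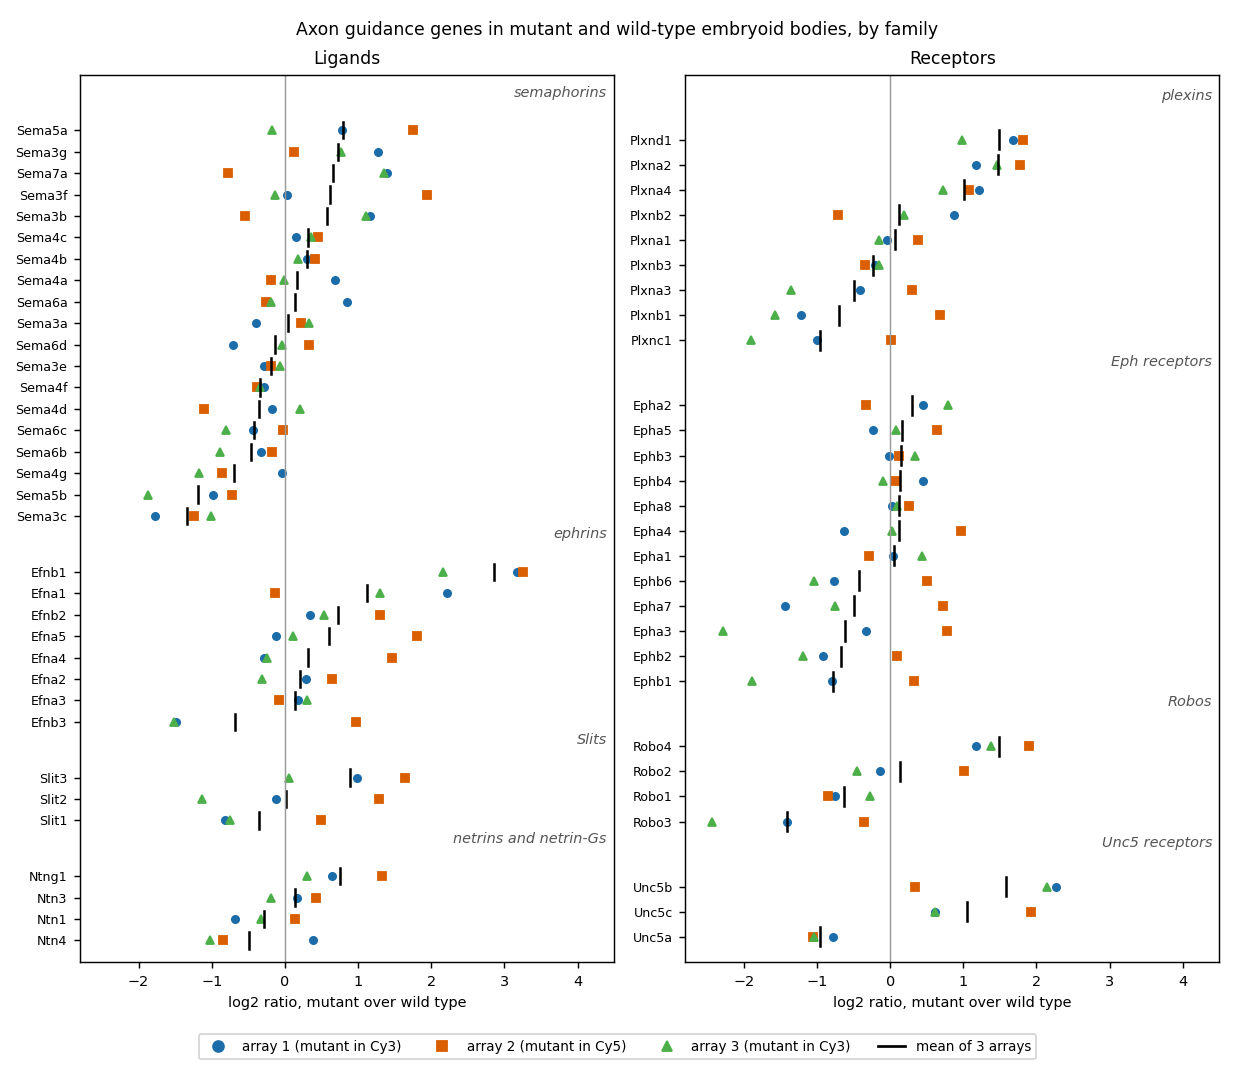
Log2 ratios of mutant over wild type (x axes) for the 62 measured guidance genes, ligands left and receptors right, grouped by family and sorted by their mean. Points are the 3 arrays and black bars their mean; Efnb1 stands farthest right at 2.86, and array 2 lies on the other side of 0 from arrays 1 and 3 for 23 genes.

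The ephrins held the member that changed most. Efnb1, which encodes the transmembrane ligand ephrin-B1, had normalized intensities of 11337, 12611 and 8272 in the 3 mutant samples, against 1260.5, 1323 and 1852 in the wild-type samples. Every mutant value was far above every wild-type value, with means of 10740 ± 2230 in the mutant and 1478 ± 325 in the wild type (SD, n = 3 each). Its log2 ratios were 3.17, 3.25 and 2.16, a mean of 2.86 with a standard error of 0.29, or 7.26-fold, and it rose past the threshold with a limma adjusted p of 0.0413. The probe lies at chrX:96343505-96343564 in mm9, the build of the files. The adjusted p missed 0.05 without replicate 1 (0.212), without replicate 3 (0.130), without the limit on the local background (0.168), without the filter on dim probes (0.0639) and in the authors' deposited log ratios (0.0599), while the log2 ratio stayed between 2.60 and 3.21 in every alternative run.

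Efnb1 is X-linked, and the genotypes differed at sex-linked probes. Eif2s3y and Ddx3y, both on the Y chromosome, were well above background in the wild type on all 3 arrays and in the mutant on none, with log2 ratios of -6.17, -7.07 and -6.46 for Eif2s3y. Xist, the RNA that coats an inactive X chromosome, was well above background in the mutant on 1 array and in the wild type on none. Over 801 genes tested on the X chromosome the median log2 ratio was -0.01, the same as over all genes, and 15 of them were called higher and 0 lower in limma, against 1.27% and 0.386% of all genes. At an unadjusted p under 0.05, 118 of the 801 were higher and 52 lower, against 12.1% and 7.78% of all genes. The X-linked plexins Plxna3 and Plxnb3, named here after their values were seen, had log2 ratios of -0.41, 0.30 and -1.35 and of -0.21, -0.34 and -0.15. The Y-linked difference held on all 3 arrays, so for every member a genotype difference cannot be told apart from it. The part of these sex-linked differences in the Efnb1 value was not tested.

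The other ephrins did not pass the adjusted threshold. Efnb2, the ephrin-B2 of arterial endothelium, had intensities of 4817, 4411 and 7163 in the mutant, against 3807, 1800 and 4963 in the wild type, and the groups overlapped. Its log2 ratios of 0.34, 1.29 and 0.53 were all above 0, with a mean of 0.72 and a limma adjusted p of 0.229. Efna1, a membrane-anchored ephrin-A induced in inflamed and angiogenic endothelium, had 14365, 10721 and 6207 in the mutant, against 3080, 11813 and 2526 in the wild type. Its log2 ratios of 2.22 and 1.30 on arrays 1 and 3 stood against -0.14 on array 2. The remaining ephrin-B, Efnb3, was lower on arrays 1 and 3 at -1.49 and -1.52 and higher on array 2 at 0.97. The 8 ephrins together had a median of 0.45, with 0.23, 1.13 and 0.20 on the 3 arrays. The array medians were 0.18, 0.65 and 0.10 over the 5 ephrin-As and 0.34, 1.29 and 0.53 over the 3 ephrin-Bs.

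The Eph receptors held no member that passed the test. Of 14 Eph genes, 12 were measured, and their mean log2 ratios ran from -0.79 to 0.30 with a median of 0.09, and the array medians were -0.28, 0.29 and -0.04. None of the 12 passed even an unadjusted p of 0.05, where 12.1% of all genes were higher and 7.78% lower. In 7 of the 12, array 2 was opposite in sign to arrays 1 and 3, against 38.4% of all genes. Among the EphB receptors, the usual partners of ephrin-Bs, Ephb1 had intensities of 307, 283 and 219 in the mutant, against 533, 226 and 808 in the wild type. Ephb2 had 319, 295 and 191 in the mutant, against 601, 277 and 436 in the wild type. For both the mutant was below the wild type on arrays 1 and 3 and above it on array 2, and the groups overlapped. Their log2 ratios were -0.79, 0.32 and -1.88 for Ephb1 and -0.92, 0.09 and -1.19 for Ephb2. Ephb6, a receptor whose kinase domain is inactive, followed with -0.76, 0.50 and -1.04. Ephb4, the venous partner of ephrin-B2, had log2 ratios of 0.45, 0.06 and -0.10 and a mean of 0.14, which was -0.020 without replicate 1. A second Ephb4 probe gave 0.60, 0.67 and -0.26. Epha2, a receptor of ephrin-A1, had a mean of 0.30, with -0.33 on array 2 against 0.45 and 0.79 on arrays 1 and 3. The array medians were -0.76, 0.12 and -1.04 over the 5 EphB receptors and -0.23, 0.65 and 0.08 over the 7 EphA receptors.

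Semaphorins, the largest family with 19 of 20 genes measured, had a median log2 ratio of 0.05, with -0.04, -0.19 and -0.07 on the 3 arrays. None passed the adjusted threshold, and at an unadjusted p under 0.05 0 were higher and 2 lower, where 12.1% of all genes were higher and 7.78% lower. Sema3c, a secreted class 3 semaphorin that guides cardiac neural crest cells into the outflow tract, had intensities of 475, 677 and 662 in the mutant, against 1629, 1597 and 1338 in the wild type. All mutant values lay below all wild-type values. Its log2 ratios were -1.78, -1.24 and -1.02, a mean of -1.34 with a standard error of 0.23 and a limma adjusted p of 0.0668, at chr5:17235981-17236040 in mm9. A second Sema3c probe gave -0.66, -0.59 and -0.60, in the same direction and smaller. Sema5b, a transmembrane semaphorin of developing neurons, had log2 ratios of -0.98, -0.73 and -1.87 (limma adjusted p of 0.118), with intensities of 157, 114 and 240 in the mutant and 310, 189 and 878 in the wild type that overlapped. A second Sema5b probe gave -1.66, 0.08 and -2.49, so the direction on array 2 depended on the probe.

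Class 3 members had ratios on both sides of 0. Sema3g, which is expressed in arterial endothelium, had log2 ratios of 1.27, 0.12 and 0.77 and a mean of 0.72. A second Sema3g probe gave 0.57, 0.18 and 0.31, in the same direction with a smaller mean of 0.35. Sema3e, the ligand of Plxnd1 in vessel patterning, had -0.29, -0.19 and -0.07 and a mean of -0.19, with 199, 311 and 330 intensity units in the mutant, against 244, 354 and 347 in the wild type. Neither passed the test. Over all 19 semaphorins, 3 were higher and 7 lower on all 3 arrays, where 22.5% of all genes were higher and 19.1% lower. The 6 class 3 genes had array medians of -0.13, -0.03 and 0.13, and the 13 genes of classes 4 to 7 had -0.04, -0.20 and -0.17. Sema6a, named after its values were seen, had the widest gap between probes, since a second probe gave 2.32, 1.10 and 0.88 where the brighter one gave 0.85, -0.25 and -0.19.

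The plexins, the semaphorin receptors, held 3 members with higher values on every array. Plxna2, a receptor of class 3 and class 6 semaphorins, had intensities of 2062, 1828 and 2681 in the mutant, against 916, 532 and 973 in the wild type. Plxnd1, the endothelial semaphorin receptor, had 1653, 3057 and 1830 in the mutant, against 518, 869 and 928 in the wild type. Plxna4, which acts in sensory and cortical axons, had 304, 254 and 374 in the mutant, against 131, 120 and 227 in the wild type. In each of the 3 the mutant and wild-type values did not overlap, as was so with the mutant higher in 8 of the 62 members (12.9%), against 13% of all genes, and with the mutant lower in 5 (8.06%), against 8.58%. The mean log2 ratio was 1.47 ± 0.31 for Plxna2, 1.49 ± 0.45 for Plxnd1 and 1.01 ± 0.26 for Plxna4 (SD, n = 3 arrays), about 2.77-fold, 2.81-fold and 2.01-fold. Their limma adjusted p-values were 0.0530, 0.0623 and 0.0863, all short of 0.05.

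A second Plxnd1 probe gave log2 ratios of 0.78, 1.79 and -0.07, so the direction on array 3 depended on the probe. The probes of Plxna2, Plxnd1 and Plxna4 lie at chr1:196642958-196643017, chr6:115904829-115904888 and chr6:32094602-32094661 in mm9. The other 6 plexins had mean log2 ratios between -0.96 and 0.11, and the family median over 9 genes was 0.06, with -0.04, 0.38 and -0.15 on the 3 arrays.

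**Figure D2:**
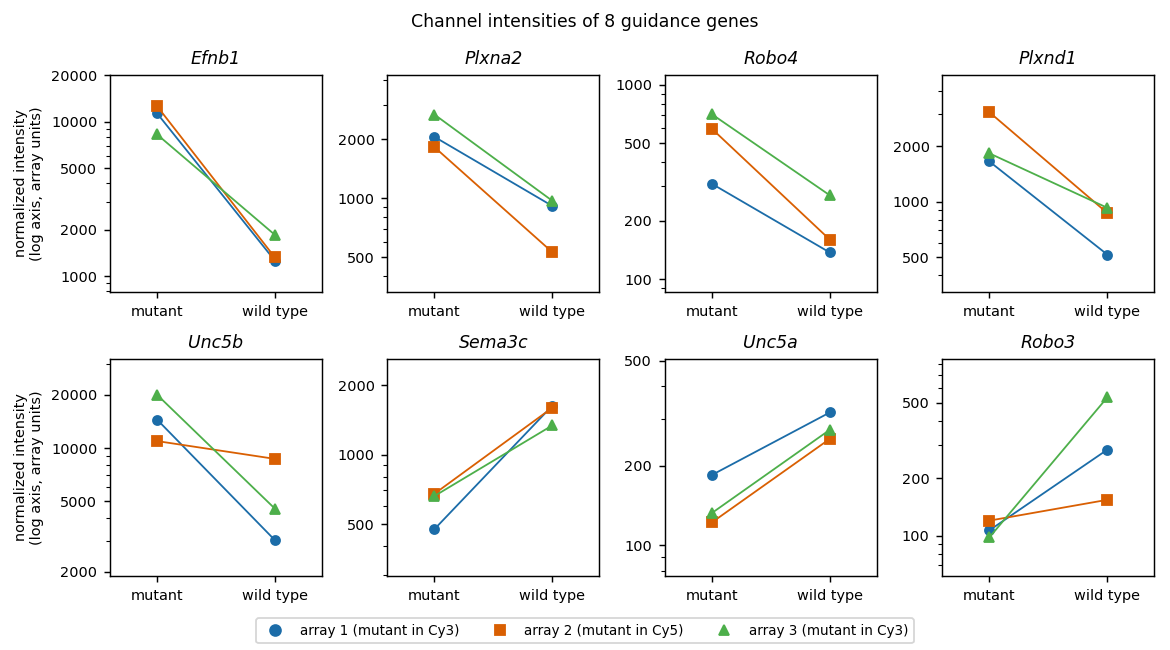
Normalized channel intensities (log y axes, array units) of 8 guidance genes in mutant and wild-type samples, with a line joining the 2 RNAs of each array. Efnb1, Plxna2, Robo4, Plxnd1 and Unc5b have every mutant value above every wild-type value, Sema3c, Unc5a and Robo3 every mutant value below, and the lines of Unc5b and Robo3 are shallowest on array 2.

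The Robo receptors had ratios of opposite sign. Robo4, a receptor largely restricted to endothelium, had intensities of 309, 593 and 705 in the mutant, against 137, 160 and 270 in the wild type. Robo3, which lets commissural axons cross the midline, had 106.7, 120 and 98.0 in the mutant, against 283, 154 and 532 in the wild type. Neither gene's groups overlapped, as was so for 13% of all genes with the mutant higher and 8.58% with the mutant lower. The log2 ratios were 1.17, 1.89 and 1.38 for Robo4 (mean 1.48, 2.79-fold, limma adjusted p of 0.0564) and -1.41, -0.36 and -2.44 for Robo3 (mean -1.40, limma adjusted p of 0.175).

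These receptor genes are neighbours. In mm9 the Robo4 probe lies at chr9:37221547-37221606 on the plus strand and the Robo3 probe at chr9:37224357-37224416 on the minus strand, 2750 bases apart. The log2 ratio of Robo4 exceeded that of Robo3 by 2.58, 2.25 and 3.82 on the 3 arrays, a mean of 2.89 ± 0.83 (SD, n = 3 arrays). This pair was singled out after its values were seen, so the difference is a description with no test. Robo1, a broadly expressed receptor, had 1846, 2106 and 2235 in the mutant, against 3101, 3813 and 2707 in the wild type, without overlap and with a mean log2 ratio of -0.63 (limma adjusted p of 0.208). The 4 Robos together had a median of -0.24, with -0.45, 0.32 and -0.36 on the 3 arrays.

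Their Slit ligands did not pass the test. Slit3, which is expressed in mesenchyme and muscle, had intensities of 804, 723 and 393 in the mutant, against 405, 233 and 377 in the wild type, with log2 ratios of 0.99, 1.63 and 0.06 and a mean of 0.89. Slit1, a ligand mainly of the nervous system, had -0.82, 0.50 and -0.75. Slit2, the best studied repellent of the family, had -0.12, 1.28 and -1.14 and a mean of 0.01, whose sign turned under 5 alternatives, among them the scanner software's own ratios at -0.032 and the authors' deposited log ratios at -0.12. The 3 arrays thus gave no common direction for Slit1 or Slit2.

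Of the 4 Unc5 receptors, which turn netrin attraction into repulsion, 3 were measured and none passed the adjusted threshold. Unc5b, the vascular member, had intensities of 14497, 10955 and 20029 in the mutant, against 3017, 8687 and 4546 in the wild type. Unc5c, a receptor of migrating neurons, had 1630, 1572 and 1571 in the mutant, against 1066, 412 and 1024 in the wild type. Unc5a, a neuronal receptor that can trigger cell death without its ligand, had 185, 122 and 133 in the mutant, against 319, 253 and 274 in the wild type. In all 3 the groups did not overlap, with Unc5b and Unc5c higher in the mutant and Unc5a lower. Of all genes, 13% had no overlap with the mutant higher and 8.58% with the mutant lower.

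The log2 ratios of Unc5b were 2.26, 0.33 and 2.14, a mean of 1.58 (limma adjusted p of 0.153), and array 2 was the low one. Those of Unc5c were 0.61, 1.93 and 0.62, a mean of 1.05 (limma adjusted p of 0.188), and array 2 was the high one. A second Unc5c probe gave log2 ratios of 0.68, 1.27 and 1.18, so how far array 2 stood above array 3 depended on the probe. Those of Unc5a were -0.79, -1.05 and -1.05, a mean of -0.96 ± 0.15 (SD, n = 3 arrays; limma adjusted p of 0.0812), the steadiest of the 3. The fourth receptor, Unc5d, was not well above background on any array in either genotype.

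No netrin or netrin-G passed the test. Ntn1, the netrin of the floor plate, had intensities of 328, 260 and 458 in the mutant, against 527, 236 and 576 in the wild type, and log2 ratios of -0.68, 0.14 and -0.33. Ntn4, a netrin of basement membranes, had 0.39, -0.84 and -1.02. Ntng1, a membrane-anchored netrin-G that does not bind the usual netrin receptors, had 196, 244 and 188 in the mutant, against 126, 97.6 and 152 in the wild type, and was well above background in the wild type on 2 of 3 arrays. Its log2 ratios were 0.64, 1.32 and 0.31, a mean of 0.76 with a limma adjusted p of 0.216. That mean was 1.88 in the scanner software's own ratios and 0.36 without the limit on the local background. The family median over 4 measured genes was -0.08, with 0.28, 0.29 and -0.26 on the 3 arrays. The other members that could not be measured were Ntn5, Ntng2, Epha6, Epha10 and Sema3d. In neither genotype was any of them well above background on every array, though Sema3d was so on 2 arrays in each genotype.

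A list of 9 members with a known part in blood vessels, which does not hold every such member, was made of Efnb2, Ephb4, Plxnd1, Robo4, Unc5b, Sema3e, Ntn4, Epha2 and Efna1. It was chosen with earlier results of these data known, so its counts and median are a description only. None of the 9 passed the adjusted threshold, and at an unadjusted p under 0.05 4 were higher (Plxnd1, Robo4, Unc5b and Efnb2) and 0 lower, where 12.1% of all genes were higher and 7.78% lower. The median of their mean log2 ratios was 0.72, with 0.45, 0.06 and 0.79 on arrays 1, 2 and 3, against 0.12 over all 62 members. Endothelial markers also differed: the 12 markers had a median log2 ratio of 0.76 (0.99, 1.13 and 0.50 by array). Their median was highest on array 2, where that of the 9 vascular members was lowest. The markers' summed intensity was 35681 to 45384 in the mutant, against 15406 to 24928 in the wild type. Of these markers the receptors Flt1 and Kdr rose past the threshold, with log2 ratios of 3.48, 2.98 and 2.71 for Flt1 and 2.88, 2.22 and 1.72 for Kdr. The junction gene Cdh5, which defines endothelium, gave 0.43, -0.28 and -0.22, and Pecam1 gave 0.70, 0.38 and 0.91. Esam, another junction gene of the list, was lower on all 3 arrays at -0.54, -1.36 and -0.50, short of the adjusted threshold. The sum was carried by Flt1, with intensities of 23186, 14508 and 15158 in the mutant, against 2078, 1840 and 2312 in the wild type, and by Egfl7, with 10359, 15042 and 13307 in the mutant, against 8101, 17512 and 8861 in the wild type. All 12 markers were well above background in the mutant on at least 1 array, and Erg was not in the wild type on any. The part of endothelial content in the values of the 9 genes was not tested.

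The neuropilins, which are coreceptors and no members of the families above, held both calls made among the other genes of the pathway. Nrp1, the coreceptor of Sema3a and of vascular endothelial growth factor, had intensities of 4301, 1836 and 3381 in the mutant, against 202, 229 and 349 in the wild type. Nrp2, which prefers Sema3f and acts in lymphatic and venous vessels, had 443, 379 and 312 in the mutant, against 106, 99.7 and 108 in the wild type, where it was well above background on 2 of 3 arrays. The groups lay far apart for both genes. The log2 ratios were 4.41, 3.003 and 3.28 for Nrp1 (mean 3.56, limma adjusted p of 0.0356) and 2.06, 1.93 and 1.53 for Nrp2 (mean 1.84, limma adjusted p of 0.0430), and both rose past the threshold. No gene of the array was called under the 5 alternatives that ended the Efnb1 call, so these calls ended there too. The neuropilins' class 3 ligands Sema3a and Sema3f, named after their values were seen, gave -0.39, 0.22 and 0.33 and 0.03, 1.94 and -0.13.

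The list of coreceptors and other guidance cues had 24 genes, of which 19 were measured, 2 were called higher and 0 lower, and 6 were higher and 1 lower at an unadjusted p under 0.05. Over all genes, higher calls made up 1.27% and lower calls 0.386%, and at an unadjusted p under 0.05 12.1% were higher and 7.78% lower. The list median was 0.24, with 0.19, 0.71 and 0.04 on the 3 arrays. Dscam, a homophilic adhesion molecule and netrin receptor, had log2 ratios of 4.44, 0.78 and 3.01, with an adjusted p of 0.134 in limma. Of the 35 intracellular effectors, the kinases, adaptors and cytoskeletal proteins below the receptors, 34 were measured. None was called in limma, 5 were higher and 5 lower at an unadjusted p under 0.05, against the same shares of all genes, and their median was 0.04, with 0.03, 0.23 and -0.04 on the 3 arrays. Srgap1, a GTPase-activating protein below Robo receptors, had log2 ratios of 1.17, 1.84 and 1.33. Mical2, an actin-oxidizing enzyme, had 1.62, 1.04 and 1.79, although its wild-type signal was well above background on 1 of 3 arrays. Dpysl3, a collapsin response mediator, had 1.49, 2.35 and 1.22. The adjusted p-values of the 3 were 0.0567, 0.0585 and 0.0649 in limma.

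Array 2, the one with the mutant RNA in Cy5, was opposite in sign to arrays 1 and 3 for 23 of the 62 members (37.1%), against 38.4% of all genes. In 16 of the 23 the mutant was lower on arrays 1 and 3 and higher on array 2, and in 7 it was the other way round. Over all genes these splits were about even, at 3799 and 3756 of 7555. Examples of such splits, chosen after the values were seen, were Efnb3, Plxnb1 (-1.22, 0.68 and -1.57), Epha3 (-0.33, 0.78 and -2.29), Epha7 (-1.43, 0.72 and -0.75) and Sema7a (1.39, -0.78 and 1.35). Neural markers also differed in size between the arrays, mostly without a change of sign. The 12 neural progenitor markers had median log2 ratios of -3.49, -0.57 and -3.50, with array 2 opposite in sign to arrays 1 and 3 in 2 of the 12. The 12 neuron markers had medians of -2.01, -0.55 and -2.11, with array 2 opposite in 1 of the 12. Of the neuron markers 8 were lower and 2 higher on all 3 arrays, the 2 being Gap43 (0.54, 1.49 and 0.15) and Snap25 (1.02, 0.13 and 0.20). Summed over each list, intensity was 6554 to 24156 in the mutant, against 27874 to 88922 in the wild type, for progenitors and 10731 to 13455 in the mutant, against 9398 to 33438 in the wild type, for neurons. Bright probes weigh most in such sums: Snap25 had 6274, 4283 and 3437 in the mutant, against 3095, 3911 and 2985 in the wild type, and Gap43 had 4096, 4036 and 4886 in the mutant, against 2818, 1434 and 4392 in the wild type. No marker of either list was called, with 10 progenitor and 8 neuron markers lower at an unadjusted p under 0.05, and each was well above background in both genotypes on at least 1 array. Their part in the guidance values was not tested.

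Without array 2, both remaining arrays carried the mutant in Cy3, so a genotype difference and a dye difference cannot be told apart in that fit. The same limma test called 22 of the 62 members (35.5%) there, against 25.8% of all genes. Of the 22, 10 were higher in the mutant, among them Efnb1, Plxna2, Plxna4, Plxnd1, Robo4, Unc5b, Efna1 and Sema3g, and 12 were lower, among them Robo3, Sema3c, Sema5b, Unc5a, Slit1, Ephb1, Ephb2 and Ephb6. With all 3 arrays and the dye as a term, 13 members (21%) were called, against 12.9% of all genes. Efnb1, Plxna2, Plxna4, Plxnd1, Robo4, Sema3c, Unc5a and Unc5b were called in both of these fits. The dye term fits array 2 exactly, so both fits take their spread from arrays 1 and 3 alone. Calls shared by both are therefore no independent support for each other. Unc5c, Efnb2, Ntng1, Efna5 and Sema3f were called with the dye term and not without array 2. Without array 1 or without array 3, limma called 0 members, with 10 and 12 members at an unadjusted p under 0.05.

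**Figure D3:**
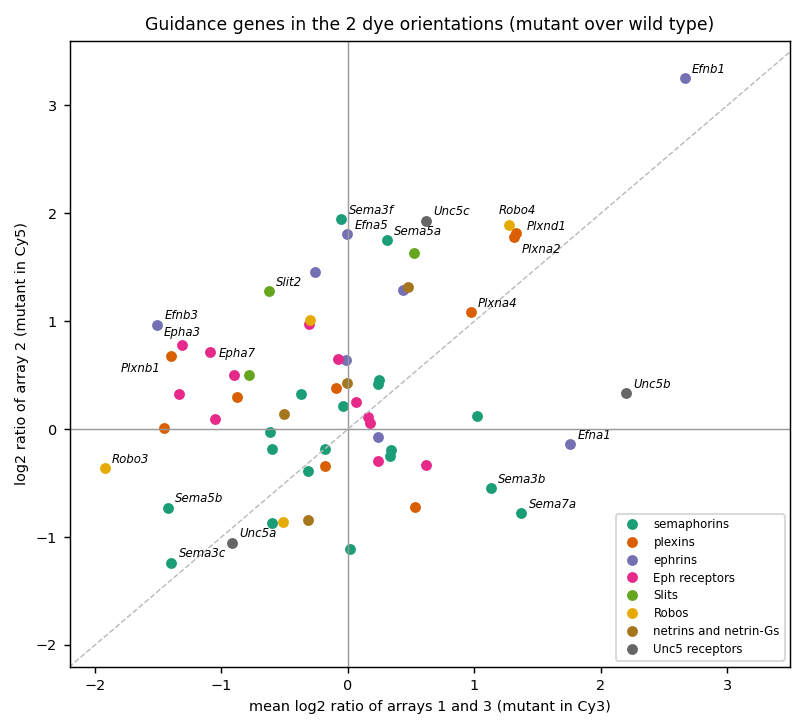
Mean log2 ratio of arrays 1 and 3, with the mutant in Cy3 (x axis), against the log2 ratio of array 2, with the mutant in Cy5 (y axis), for the 62 guidance genes coloured by family. Points near the dashed line of equal values, such as Plxna4, Unc5a and Sema3c, gave like ratios in both orientations, and the 16 genes that were lower on arrays 1 and 3 and higher on array 2 lie in the upper left.

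Markers of other tissues also differed. The median log2 ratio of 10 cardiac muscle genes was 2.42, with 1.39, 3.29 and 2.55 on the 3 arrays. That of 8 of 10 mesenchyme genes was 1.39, with 1.77, 1.25 and 1.06, and that of 10 visceral endoderm genes was 2.30, with 3.40, 1.03 and 2.29. The 8 pluripotency genes had a median of -0.54 with no common direction, at -1.42, -2.12 and 0.88. Summed intensity was 22467 to 107825 in the mutant, against 9069 to 13528 in the wild type, for cardiac muscle, and 161265 to 190428 in the mutant, against 30598 to 57830 in the wild type, for mesenchyme. For visceral endoderm it was 392748 to 753005 in the mutant, against 63931 to 196921 in the wild type, and for pluripotency 15198 to 83101 in the mutant, against 37610 to 55913 in the wild type. The part of tissue composition in single members was not tested.

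**Figure D4:**
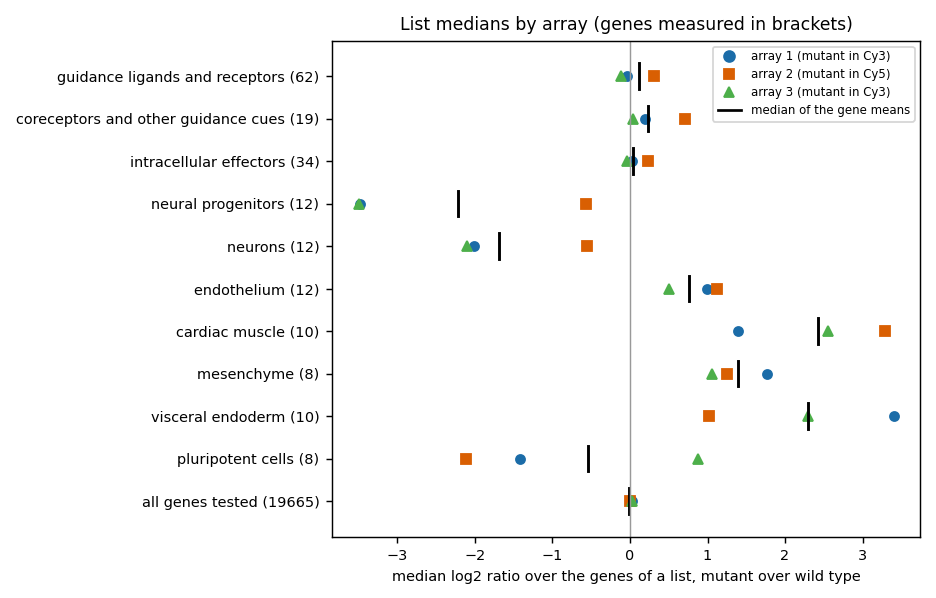
Median log2 ratio of mutant over wild type (x axis) on each array for the guidance genes, their coreceptors and effectors, 7 marker lists and all genes tested, with the number of genes measured in brackets. Black bars are medians of the genes' means; the guidance genes sit at 0.12, while the neural progenitor list sits at -2.22 with array 2 at -0.57.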

How the data were processed

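RNA of day 10 mouse embryoid bodies was hybridised on 3 two-colour arrays of 1 slide, and each array paired a mutant with a wild-type sample. Spot and local background intensity and a log10 ratio stand in the deposited scanner files, whose headers name Agilent Feature Extraction 10.7.3.1. The log2 ratios are a table that the authors deposited. The submitters' processing notes name limma, and no further step is given in the sources used here. Compared with scanner ratios of mutant over wild type at 16363 spots, its columns had slopes of 0.77, 0.78 and 0.83. Their medians were -0.01, 0.02 and -0.01, and scaling and background steps stay unknown.

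Mean spot intensity was corrected by normexp (limma 3.58.1 in R 4.3.3, offset 50). The local background was held to at most 100 units, since 25 spots of array 2 exceeded this (up to 75739). Loess within arrays gave control spots weight 0, outlier spots were dropped, and repeat spots were averaged. Of 39429 probes, 25494 passed the filter, which asked for signal well above background on all 3 arrays in 1 genotype or more. A gene was represented by its brightest probe, and levels of different probes are not compared. A two-sided limma fit (lmFit, eBayes, 4.76 degrees of freedom) tested each ratio against 0, with Benjamini-Hochberg adjustment over 19665 genes. In all, 325 genes passed 0.05 (249 higher and 76 lower). Channel intensities came from loess and Aquantile scaling. The offset makes ratios understate the change of dim genes. The number of arrays limits the precision, and p-values measure the spread between 3 replicate arrays.

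Of the members' probes, 86 matched RefSeq by accession and 11 by symbol. Named members were those past the threshold, those at least 2-fold changed in 1 direction on all 3 arrays, the 3 of smallest p in each family and the 9 vascular genes, 27 in all. Other pathway genes were given by counts, with the 3 of smallest p in each list. The members and all lists were chosen with earlier results of these data known.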

Additional observations from a re-analysis of the deposited data

How the results depend on the processing

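Efnb1 kept its direction under all 16 alternatives, and 25 of the 27 named members never changed sign. Some of these alternatives could not turn a sign. The threshold of 0.1 and the separate-channel fit leave the log2 ratio as it is. The other filters and the mean of a gene's kept probes also left that of Efnb1 at 2.86. Members called, beside genes called over the array, numbered 0 and 0 without the limit on the local background, 2 (Efnb1 and Robo4) and 769 with the scanner software's own ratios, 0 and 0 with no filter on dim probes, 13 and 2534 with a dye term, 0 and 0 in the authors' deposited log ratios, 7 and 1352 at a threshold of 0.1, and 6 (Efnb1, Plxna2, Plxnd1, Robo4, Sema3c and Unc5a) and 1310 in a separate-channel fit, against 1 and 325. Leaving out 1 replicate gave 0 to 22 members and 0 to 5082 genes: 22 and 5082 without replicate 2, 0 and 0 without replicate 1 or 3. Where limma called 0 genes, 10 to 15 members and 1659 to 4831 genes had an unadjusted p under 0.05. In the other 6 alternatives run, 1 member and 231 to 408 genes were called. The cause was not tested. The sign turned for Slit2 without the limit (-0.19), with a limit of 200 units (-0.0024), in the scanner's ratios (-0.032), in the authors' deposited log ratios (-0.12) and without replicate 2 (-0.63), and for Ephb4 without replicate 1 (-0.020). Leaving out 1 replicate gave -0.63 to 0.58 for Slit2 and -0.020 to 0.26 for Ephb4. The members' median ranged from -0.04 to 0.15. The ratios are themselves the paired analysis, by array, and only the separate-channel fit is in part unpaired. With 2 arrays in 1 dye orientation and 1 in the other, dye and replicate cannot be separated, and dim genes such as Robo3 and Ntng1 lie near background.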

Other observations

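Some intracellular effectors of guidance that are expressed in neurons, chosen here after their values were seen, had ratios on array 2 far from those on the arrays with the mutant in Cy3. Pak3, a kinase below Rac and Cdc42, had log2 ratios of -2.42, -0.22 and -3.37 on arrays 1, 2 and 3. Dpysl4 and Crmp1, both collapsin response mediator proteins, had -2.38, -0.09 and -3.05 and -1.90, -0.01 and -2.60. Srgap3, a GTPase-activating protein of Rac, had -2.45, 0.99 and -2.35. None of the 4 passed the adjusted threshold in limma. Their relatives Dpysl3 and Srgap1 were higher on every array. Other relatives had no common direction, with 0.27, 0.81 and -0.96 for Dpysl2, -0.73, 0.68 and -0.72 for Dpysl5, and 0.56, -0.78 and 0.50 for Srgap2.

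Among probes left out, one that the array names Dcc, the attractive netrin receptor, lies on chromosome 7 in mm9, while the gene lies on chromosome 18. It had intensities of 79733, 22217 and 83271 in the mutant, against 3691, 4997 and 4260 in the wild type, and log2 ratios of 4.43, 2.15 and 4.29. In neither genotype was a probe placed at Dcc itself well above background on every array, though the brighter was so on 1 mutant array and 2 wild-type arrays. A second probe named Plxna2 lies on chromosome 13, while the gene lies on chromosome 1, and had log2 ratios of 0.11, 0.45 and 0.10.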
